A study of Mus musculus with 8 samples.

Results

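The genes described here are 35 mouse genes of the lysosome, the acid compartment in which cells break down proteins, sugars and lipids. They were set by gene name, with earlier results of these data known. They are the transcription factors Tfeb, Tfe3 and Mitf, 6 membrane and lipid-transport proteins, 12 subunits of the proton pump, and 14 hydrolases or their partners, with the cathepsins left out. All 35 are in the table of 54532 genes. All 35 were also among the 11421 genes that reached 1 FPKM in at least 2 libraries and were tested. FPKM here are fragments scaled by gene length and by a factor for each library.

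The libraries are RNA sequencing of bone marrow derived macrophages, phagocytes grown in culture from mouse marrow. Cells had received either spermine, a polyamine that carries several positive charges, or PBS, the buffer control, and were sampled at 0 h or 3 h of IFN-β, a type I interferon. That gives 4 groups of 2 libraries each, called here PBS 0 h and 3 h and spermine 0 h and 3 h. In every group the titles mark the libraries BM1 and BM2, called here replicate 1 and 2. What these marks stand for is not stated in the labels. The series text describes a profile of interferon-stimulated genes with and without spermine, and its title names JAK1, the kinase of the interferon receptor. Every 3 h group had received IFN-β, so the effect of IFN-β and that of the elapsed 3 h cannot be told apart. Spermine was present in both groups it names, whether or not IFN-β followed. Mouse strain, sex, age, doses and the length of the spermine treatment are not stated in the labels used here. Nor do the labels say whether the 2 libraries of a group came from separate animals or cultures, so p-values measure only the spread between these libraries, which may be technical.

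Lysosomes are kept acid by the vacuolar proton pump, a rotary machine whose membrane sector, V0, carries protons and whose outer sector, V1, splits ATP to drive it. Lysosomal hydrolases work at that acid pH and are brought in through sorting receptors, while a densely sugar-coated membrane of LAMP proteins shields the cell from them. TFEB, TFE3 and MITF are related transcription factors that bind an E-box motif called CLEAR in front of many of these genes. The kinase mTORC1, which sits on the lysosome when nutrients are plentiful, keeps them in the cytoplasm by phosphorylating them. In macrophages, lysosomes digest what the cell has engulfed.

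The E-box is shown first, since it is what the promoters of several of these genes share. RefSeq promoters (GRCm38.p6, 250 bases before to 50 after the transcript start) matched 29 of the 35 genes. Both strands were searched for TCACGTG, the centre of the CLEAR motif, which was in the promoters of 9 of the 29 genes (31%). It was in 7.64% of the promoters of 8087 tested genes and in 4.29% of all 27025. The bare palindrome CACGTG, which lies within TCACGTG, was in the same number of promoters of the lysosome genes (31%, against 12.5% of tested genes). The variant TCATGTG was in 6 of the 29 (20.7%, against 2.73% of tested genes). The densest promoter was that of Lamp1, which encodes one of the main proteins of the lysosome membrane. The 80 bases just before its start (chr8:13159081-13159160, plus strand, upstream of the first exon) hold the motif 4 times, shown in capitals on whichever strand it reads.
Lamp1: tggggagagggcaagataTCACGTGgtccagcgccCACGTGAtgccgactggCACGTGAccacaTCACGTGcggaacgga

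Single matches from 4 further genes are given with 10 bases on either side, because these are a calcium channel, a sugar hydrolase and the pump sector subunits that differ in their values below. Capitals again mark the match. The Mcoln1 site lies at chr8:3500437-3500463 on the plus strand, 72 bases before the RefSeq start, and another copy stands 46 bases before it. The Gla site lies at chrX:134601183-134601210 on the minus strand, 195 bases before the start, and a second copy of the motif stands 228 bases before it. The Atp6v0d1 site lies at chr8:105566051-105566078 on the minus strand, 4 bases before the start. The Atp6v0c site, of the TCATGTG variant, lies at chr17:24169451-24169477 on the minus strand. It is 17 bases before a RefSeq start that lies inside the annotated gene (chr17:24163866-24169702). The other windows of this gene hold neither TCACGTG nor TCATGTG.
Mcoln1: gtcgcgcttgTCACGTGttcagttcag
Gla: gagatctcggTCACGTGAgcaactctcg
Atp6v0d1: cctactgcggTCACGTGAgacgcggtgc
Atp6v0c: cggggacagaTCATGTGacgcgagcgc

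These matches are letters in a window and do not show that a factor binds there. The other promoters with TCACGTG were those of Atp6v0b, Atp6v1a, Gaa, Glb1 and Naglu. The promoters of Lipa, Lamp2, Atp6v1d and the 3 factors themselves had none in this window. A core of interferon response elements, GAAANNGAA, was in 4 of the 29 (13.8%, against 9.11% of tested genes). The core TGACNNNGC of the antioxidant response element was in 8 of the 29 (27.6%, against 17.6% of tested genes).

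Libraries held between 15723437 and 17744844 reads, rebuilt from the deposited FPKM. The label of macrophages was checked on 8 macrophage markers. All 8 were expressed, with a summed level of 11204 to 13807 FPKM per library. T cell and red cell markers were at or near 0 in every library, although the extraction protocol speaks of blood. Neutrophil markers summed to 5.05 to 8.32 FPKM and osteoclast markers, a cell type that also raises proton pump genes, to 16.9 to 25.4 FPKM, with the osteoclast receptor Calcr at 0. The osteoclast sum was highest in spermine 3 h (25.3 and 25.4 FPKM), where Ctsk was at 15.7 and 15.3 FPKM against 6.21 and 5.12 in PBS 0 h. Nfatc1 went the other way, from 11.3 and 10.9 FPKM in PBS 0 h to 4.92 and 5.8, and Dcstamp from 1.67 and 1.4 to 0.75 and 0.835. The 4 endothelial markers summed to 14.8 to 15.6 FPKM in PBS 0 h, 45.1 to 45.7 in PBS 3 h, 10.4 to 11.1 in spermine 0 h and 25.8 to 26.8 in spermine 3 h. The rise was in Kdr, at 2.37 to 2.43 FPKM in PBS 0 h and 36.3 to 37.3 in PBS 3 h, while Vwf was lower at 3 h and Emcn was at 0. The 5 dendritic cell markers summed to 0.336 to 0.38 FPKM in PBS 0 h, 3.22 to 4.5 in PBS 3 h, 1.19 to 1.29 in spermine 0 h and 5.68 to 6.54 in spermine 3 h. Of these, Xcr1 alone reached 1 FPKM. The part of these markers in the results was not tested.

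Macrophages expressed every one of these genes, over a wide range. In PBS 0 h the mean level ran from 7.67 FPKM for Atp6v1h to 4356 FPKM for Psap, with a median of 58.5 FPKM. Psap, the precursor of the saposins that hand lipids to hydrolases, alone took 41.5% to 44% of the reads of the 35 genes. Together the genes took 3.53% ± 0.0666 (SD, n = 2) of all reads in PBS 0 h and 2.99% ± 0.105 in PBS 3 h, so their share was lower in both libraries at 3 h. With spermine the share was 3.54% ± 0.0522 at 0 h and 3.27% ± 0.0207 at 3 h. Fewer cells and less RNA per cell cannot be told apart in such bulk samples.

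A gene is said below to have risen or fallen when limma's moderated test on log2(FPKM + 1) gave an adjusted p under 0.05, with p-values adjusted over all tested genes. Changes are log2 changes of FPKM + 1 with their SE. Where a call is said not to hold without certain libraries, it was lost when any 1 of those named was left out, and the range of adjusted p beside it covers these. The deposited values keep the median gene near no change, at -0.02 with IFN-β in PBS and 0.01 with spermine at 0 h. Rescaling every library to TPM, in which all genes of a library share 1 fixed total, moved the change of all genes by a median of -0.46 with IFN-β in PBS and -0.33 with IFN-β and spermine. For spermine against PBS that median was -0.34 at 0 h and -0.20 at 3 h, and for the difference between the IFN-β responses it was 0.14. Many of the changes of the lysosome genes are smaller than the shift in their comparison. Each count is therefore given as deposited, and again for genes called in the same direction as deposited, in TPM and after quantile normalization.

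After 3 h of IFN-β in PBS, the 3 transcription factors of the lysosome fell in all scalings tried, as did 4 of the other genes. Of the 35 genes, 12 rose and 7 fell, that is 34.3% and 20%, against 24.6% and 25.0% of all tested genes. Only Lamp2, Gla and Atp6v1d rose in all 3 scalings (8.57%, against 14.5% of all genes). Tfeb, Tfe3, Mitf, Npc1, Mcoln1, Atp6v0a1 and Atp6v1c1 fell in all 3 (20%, against 24.7%). The balance turned with the scaling. In TPM 4 were higher and 23 lower (14.8% and 55.3% of all genes), and after quantile normalization 3 and 24 (20.4% and 35.4%). The median change was 0.17 as deposited, -0.30 in TPM and -0.42 after quantile normalization. None of the hydrolases fell in all 3. Without PBS 0 h replicate 1, 7 genes rose in place of 12.

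With spermine present, the 3 h of IFN-β raised 10 of the genes and lowered 5 (28.6% and 14.3%, against 19.7% and 22.1% of all genes). In TPM 2 were higher and 17 lower (12.0% and 44.0% of all genes), and after quantile normalization 2 and 20 (15.1% and 29.9%). The median went from 0.12 as deposited to -0.21 and -0.24. Gla alone rose in all 3 scalings (2.86%, against 11.7%), and Tfeb, Tfe3, Mitf, Npc1 and Atp6v1c1 fell in all 3 (14.3%, against 22.0%). Leaving out either spermine 3 h library left 6 rising genes.

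Spermine without IFN-β moved more of the genes up than down as deposited, and about as many or more down after rescaling. At 0 h, 17 rose and 2 fell (48.6% and 5.71%, against 22.0% and 19.2% of all genes). In TPM 6 were higher and 9 lower (10.4% and 41.5% of all genes), and after quantile normalization 7 and 8 (17.8% and 21.0%). The median was 0.26, against 0.01 for all genes. In TPM the genes' median was -0.09 against -0.30 for all genes, and after quantile normalization it was -0.14 against -0.03, so the sign of the median turned in both. Atp6v0d1, Atp6v1a, Atp6v1c1, Atp6v1h, Gla and Lipa rose in all 3 scalings (17.1%, against 10.3%). Scarb2 and Atp6v0a1 fell in all 3 (5.71%, against 16.3%). Without PBS 0 h replicate 2, 11 rose in place of 17. One of the 2 falls, that of Atp6v0a1, did not hold without either library of PBS 0 h, spermine 0 h or spermine 3 h.

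At 3 h of IFN-β, spermine against PBS again gave more rises than falls. Of the genes, 15 were higher with spermine and 2 lower (42.9% and 5.71%, against 19.9% and 20.6% of all genes). In TPM 10 were higher and 4 lower (11.7% and 32.2% of all genes), and after quantile normalization 11 and 4 (17.0% and 20.1%). Tfe3, Mitf, Atp6v0b, Atp6v0c, Atp6v0d1, Atp6v1a, Atp6v1c1, Atp6v1h, Gla and Lipa were higher in all 3 scalings (28.6%, against 11.6%), and Scarb2 and Atp6v1d lower (5.71%, against 18.3%). Neither lower call held without PBS 3 h replicate 1 or either spermine 3 h library. The IFN-β comparison and the spermine comparison share libraries, so their values are set side by side and not counted as separate evidence.

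**Figure D1:**
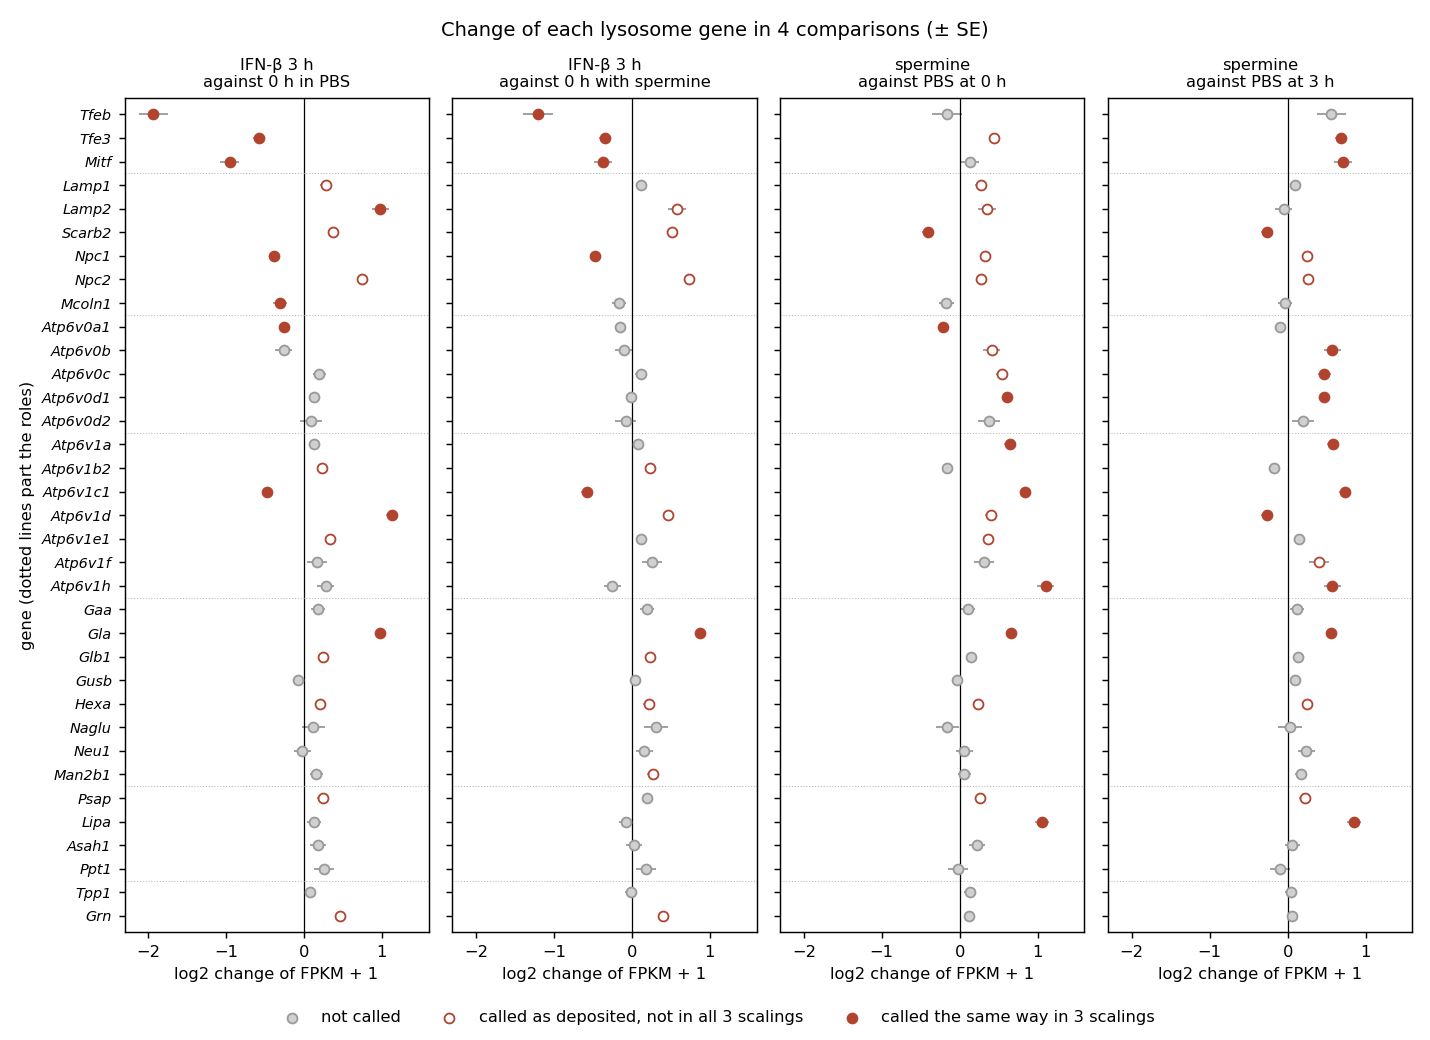
Log2 change of FPKM + 1 (x axis, ± SE) of each of the 35 lysosome genes (y axis) in 4 comparisons of 2 libraries against 2. Filled red points were called in the same direction in 3 scalings, open red points were called as deposited but not in all 3, and grey points were not called. The transcription factors at the top lie left of 0 in both IFN-β panels, and 6 filled points lie right of 0 for spermine at 0 h.

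Of the transcription factors, Tfeb had the largest change of the 35 genes with IFN-β. Tfeb (chr17:47737030-47792419, plus strand), which encodes the best known activator of lysosome genes, was at 7.90 and 9.87 FPKM in PBS 0 h and at 1.19 and 2.05 in PBS 3 h. With spermine it was at 7.03 and 8.62 FPKM at 0 h and at 3.11 and 2.55 at 3 h. Both 3 h groups lay below both 0 h groups, and the spermine 3 h libraries lay above the PBS 3 h libraries without overlap. Tfeb fell by 1.93 ± 0.19 on the log2 scale in PBS (limma adjusted p = 0.000161) and by 1.2 ± 0.19 with spermine (adjusted p = 0.00246). Its difference between spermine and PBS at 3 h, 0.56 ± 0.19, missed the threshold (adjusted p = 0.0517). It was called after quantile normalization (0.64, adjusted p = 0.0448), with an offset of 0.1, with voom on the rebuilt reads, and without PBS 3 h replicate 2 (0.80). It was not called in TPM (0.54, adjusted p = 0.0992), and it was 0.32 without PBS 3 h replicate 1. Its lowest library held 94 reads of Tfeb, so this is among the less precise values.

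Mitf (chr6:97807052-98021349, plus strand), known from pigment cells and osteoclasts, stood at 13.7 and 13 FPKM in PBS 0 h against 6.95 and 5.91 in PBS 3 h. In spermine 0 h its libraries gave 16.4 and 13.1 FPKM, and in spermine 3 h 10.8 and 11.4. The 0 h groups overlapped, and PBS 3 h was below all other libraries. The fall in PBS was 0.95 ± 0.12 in size (limma log2 change -0.95, adjusted p = 0.000531). With spermine the change was -0.37 ± 0.12 (adjusted p = 0.042), which did not hold without either PBS 0 h library, spermine 0 h replicate 1 or either spermine 3 h library (adjusted p 0.0685 to 0.194). At 3 h Mitf was higher with spermine by 0.71 ± 0.12 (adjusted p = 0.00359).

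Tfe3 (chrX:7762560-7775202, plus strand) was the most expressed of the factors. Its 2 PBS 0 h libraries both gave 21.7 FPKM, and those of PBS 3 h gave 14.2 and 14.1. Spermine 0 h gave 28.5 and 31.0 FPKM, and spermine 3 h 22.7 and 23.6. No groups overlapped, and spermine 3 h lay close above PBS 0 h. Tfe3 fell with IFN-β by 0.58 ± 0.07 in PBS and by 0.35 ± 0.07 with spermine (limma adjusted p = 0.000345 and 0.00602). With spermine it was higher by 0.44 ± 0.07 at 0 h, a call kept after quantile normalization and lost in TPM (0.11), and by 0.68 ± 0.07 at 3 h (adjusted p = 0.000396).

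For none of the 3 factors did the difference of the IFN-β responses pass the threshold. It was 0.73 ± 0.27 for Tfeb (adjusted p = 0.125), 0.24 ± 0.09 for Tfe3 (0.147) and 0.58 ± 0.17 for Mitf (0.0664), each positive. In TPM the difference was 0.39 for Tfe3 and 0.76 for Mitf, both called there. That of Mitf was also called after quantile normalization (0.67), with voom and without spermine 0 h replicate 1, and that of Tfeb without PBS 3 h replicate 2 (0.97).

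**Figure D2:**
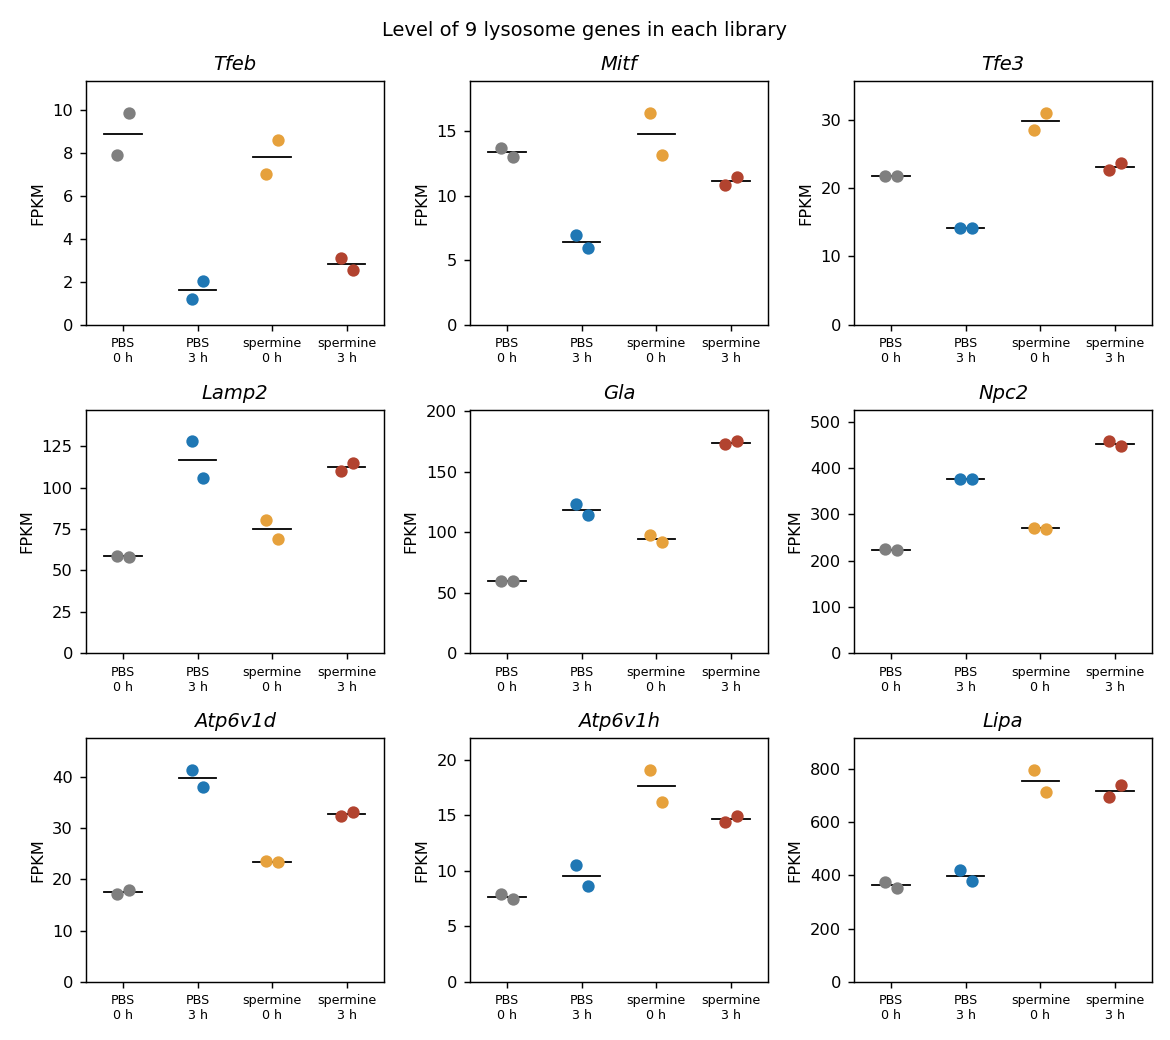
FPKM (y axis, from 0) of 9 lysosome genes in each of the 8 libraries, by group (x axis). Points are single libraries and bars the mean of the 2 in a group. Tfeb, Mitf and Tfe3 are lowest in PBS 3 h, Gla is highest in spermine 3 h (173 and 175 FPKM), and Lipa separates spermine from PBS at both times.

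The membrane and transport proteins split by gene. Lamp1 (chr8:13159161-13175338, plus strand), the membrane glycoprotein whose promoter is shown above, was at 789 and 812 FPKM in PBS 0 h and at 1000 and 949 in PBS 3 h. Spermine gave 981 and 943 FPKM at 0 h and 1013 and 1074 at 3 h. The PBS 0 h libraries were the lowest. Lamp1 rose by 0.28 ± 0.07 with IFN-β in PBS (limma adjusted p = 0.00966) and by 0.27 ± 0.07 with spermine at 0 h (adjusted p = 0.0166). The direction of both turned in TPM (-0.19 and -0.08) and after quantile normalization (-0.41 and -0.17). The first call did not hold without PBS 0 h replicate 1 or PBS 3 h replicate 1 (adjusted p 0.0548 to 0.0641), the second without either PBS 0 h library or spermine 0 h replicate 1 (0.0647 to 0.0956). An opposite-strand gene, Grtp1, shares 249 exon bases with Lamp1 but was at no more than 1.14 FPKM.

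Lamp2 (chrX:38401357-38456454, minus strand), its partner in the membrane and the receptor of chaperone-mediated autophagy in a splice form of it, moved much further. It was at 58.9 and 58.1 FPKM in PBS 0 h and at 128 and 106 in PBS 3 h. With spermine it was at 80.7 and 69.1 FPKM at 0 h and at 110 and 115 at 3 h. All 4 libraries at 3 h lay above all 4 at 0 h. Lamp2 rose by 0.98 ± 0.11 with IFN-β in PBS (limma adjusted p = 0.000331), which was 0.52 in TPM and 0.35 after quantile normalization. It rose by 0.58 ± 0.11 with IFN-β and spermine, a call lost in TPM (0.25) and after quantile normalization (0.12).

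Mcoln1 (chr8:3500457-3515232, plus strand) encodes the calcium channel through which lysosomes signal to TFEB. It gave 9.92 and 9.52 FPKM in PBS 0 h, 6.98 and 8.50 in PBS 3 h, 8.32 and 8.74 in spermine 0 h, and 7.66 and 7.44 in spermine 3 h. All other libraries lay below those of PBS 0 h, and the PBS 3 h libraries overlapped with those of both spermine groups. It fell by 0.30 ± 0.09 with IFN-β in PBS (limma adjusted p = 0.0349). That call did not hold without either PBS 0 h library, PBS 3 h replicate 1 or either spermine 3 h library (adjusted p 0.0609 to 0.147).

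Npc1 and Npc2 hand cholesterol out of the lysosome, Npc2 as a soluble carrier and Npc1 in the membrane, and they moved in opposite directions with IFN-β. Npc1 was at 42.0 and 41.8 FPKM in PBS 0 h, 31.9 and 32.2 in PBS 3 h, 54.0 and 52.2 in spermine 0 h, and 37.9 and 38.5 in spermine 3 h. Its groups did not overlap, and each 3 h group lay below its own 0 h group. Npc1 fell by 0.38 ± 0.06 in PBS and by 0.47 ± 0.06 with spermine (limma adjusted p = 0.00132 and 0.000731), in all 3 scalings. It rose with spermine at 0 h by 0.33 ± 0.06 as deposited, a value of -0.01 in TPM and 0.08 after quantile normalization. Rmc1 on the opposite strand shares 511 exon bases with Npc1 and was at 6.79 to 20 FPKM, and whether the counting used strand is not stated in the labels.

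Npc2 (chr12:84754562-84773152, minus strand) was at 225 and 223 FPKM in PBS 0 h and at 377 and 376 in PBS 3 h. With spermine it was at 271 and 269 FPKM at 0 h and at 458 and 447 at 3 h. Libraries of a group were nearly equal and no groups overlapped. Npc2 rose by 0.75 ± 0.05 in PBS and by 0.74 ± 0.05 with spermine (limma adjusted p = 3.46e-05 and 5.79e-05). The rises were 0.28 and 0.41 in TPM, still called, and 0.01 and 0.13 after quantile normalization, not called.

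Scarb2 (chr5:92441314-92506833, minus strand), a major membrane protein of the lysosome, was the only membrane member of the list to fall with spermine in all 3 scalings. It was at 36.6 and 34.8 FPKM in PBS 0 h and at 27.3 and 25.9 in spermine 0 h. At 3 h it was at 49.0 and 44.3 FPKM in PBS and at 38.0 and 39.1 with spermine. At each time the spermine libraries lay below the PBS libraries. The fall at 0 h was -0.41 ± 0.07 (limma adjusted p = 0.00456). At 3 h it was -0.27 ± 0.07 (adjusted p = 0.0252), and did not hold without PBS 3 h replicate 1 or either spermine 3 h library (adjusted p 0.0846 to 0.126). It rose with IFN-β by 0.38 ± 0.07 in PBS, a value of -0.09 in TPM and -0.11 after quantile normalization, and by 0.52 ± 0.07 with spermine, 0.20 in TPM and 0.22 after quantile normalization, neither called there.

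Of the 17 genes that rose with spermine at 0 h, 8 encode proton pump subunits. They were 3 of the 5 in V0 (60%) and 5 of the 7 in V1 (71.4%), against 22.0% of all tested genes. In V0 1 fell (20%, against 19.2%). In all 3 scalings 1 in V0 and 3 in V1 rose and 1 in V0 fell. All tested genes gave 10.3% rising and 16.3% falling there. Atp6v0d1, which joins V0 to the rotor stalk of V1, and Atp6v1a, the catalytic subunit that splits ATP, rose in all 3 scalings, as did Atp6v1c1 and Atp6v1h. Atp6v0d1 went from 80.4 ± 2.5 FPKM (SD, n = 2) in PBS 0 h to 123 ± 5.53 in spermine 0 h (log2 change 0.61 ± 0.06, limma adjusted p = 0.000478). Atp6v1a went from 104 ± 1.33 to 162 ± 9.32 FPKM (0.64 ± 0.07, adjusted p = 0.000484). The proton-carrying ring subunits Atp6v0b and Atp6v0c rose by 0.41 ± 0.11 and 0.54 ± 0.08 as deposited, which were 0.06 and 0.20 in TPM and 0.05 and 0.24 after quantile normalization, none of them called. The Atp6v0b call also did not hold without either PBS 0 h library or spermine 0 h replicate 2 (adjusted p 0.0759 to 0.0921). A processed copy of Atp6v0c, Atp6v0c-ps2, was at 5.06 to 11.8 FPKM, so part of the reads of this gene may be split with it.

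Atp6v1h (chr1:5070018-5162529, plus strand), a regulatory subunit that lets ATP splitting drive the pump, had the largest rise with spermine at 0 h among the 35 genes, close to that of Lipa. It was at 7.88 and 7.46 FPKM in PBS 0 h and at 19.1 and 16.2 in spermine 0 h. At 3 h it was at 10.5 and 8.63 FPKM in PBS and at 14.4 and 14.9 with spermine. At both times every spermine library was above every PBS library. The rise was 1.10 ± 0.11 at 0 h (limma adjusted p = 0.000437; 0.83 in TPM and 1.07 after quantile normalization) and 0.57 ± 0.11 at 3 h (adjusted p = 0.00698).

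Atp6v1c1 (chr15:38661933-38692446, plus strand), the subunit that clamps V1 to V0, responded to both treatments in opposite directions. It was at 29.0 and 27.2 FPKM in PBS 0 h, 20.9 and 19.1 in PBS 3 h, 51.8 and 50 in spermine 0 h, and 34.3 and 33.1 in spermine 3 h. No groups overlapped. It rose with spermine by 0.84 ± 0.07 at 0 h and 0.73 ± 0.07 at 3 h (limma adjusted p = 0.000213 and 0.000393). With IFN-β it fell by 0.47 ± 0.07 in PBS and 0.58 ± 0.07 with spermine (adjusted p = 0.0014 and 0.00078). All 4 calls were the same in the 3 scalings.

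Atp6v1d (chr12:78840725-78861638, minus strand), part of the rotor stalk, was the 1 gene of the 35 whose response to IFN-β differed with spermine. It was at 17.1 and 18 FPKM in PBS 0 h and at 41.4 and 38.1 in PBS 3 h. With spermine it went from 23.5 and 23.4 FPKM to 32.4 and 33.2. Spermine libraries thus lay above PBS at 0 h and below PBS at 3 h. The rise was 1.13 ± 0.07 in PBS (limma adjusted p = 1.35e-05) and 0.47 ± 0.07 with spermine (adjusted p = 0.00171). The difference of these responses was -0.67 ± 0.10 (adjusted p = 0.00777), -0.55 in TPM and -0.56 after quantile normalization. In this comparison 0 of the 35 genes had a higher and 1 a lower response with spermine, against 5.82% and 7.75% of all tested genes. In TPM 2 were higher and 1 lower (8.80% and 4.31% of all genes), and after quantile normalization 1 and 1 (7.88% and 8.02%). As deposited, the counts were 1 and 2 without PBS 3 h replicate 2, and 1 higher without spermine 0 h replicate 1. At 3 h Atp6v1d was lower with spermine by 0.27 on the log2 scale (-0.27 ± 0.07, adjusted p = 0.0186), which did not hold without PBS 3 h replicate 1 or either spermine 3 h library (adjusted p 0.0712 to 0.102).

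Atp6v0a1 (chr11:101009452-101063719, plus strand) encodes a form of the V0 subunit that lines the proton path and steers the pump to its membrane. It was at 32.6 and 35 FPKM in PBS 0 h, 27.7 and 28.2 in PBS 3 h, 28.5 and 29.8 in spermine 0 h, and 26.1 in both libraries of spermine 3 h. Both PBS 0 h libraries were above all others. It fell with IFN-β in PBS by 0.26 ± 0.06 (limma adjusted p = 0.0128), which did not hold without PBS 0 h replicate 2 (log2 change -0.21, adjusted p = 0.0914). The change with spermine at 0 h was -0.21 ± 0.06 (adjusted p = 0.0385), and was lost on leaving out any 1 of 6 libraries (those of PBS 0 h, spermine 0 h and spermine 3 h, adjusted p 0.0641 to 0.207).

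Atp6v0d2, a subunit known from osteoclasts and some macrophages, did not pass the test in any comparison. It was at 17.0 and 15.2 FPKM in PBS 0 h, 18.7 and 15.8 in PBS 3 h, 23.4 and 18.9 in spermine 0 h, and 17.9 and 21.9 in spermine 3 h. The spermine libraries lay above the PBS libraries at 0 h and overlapped with them at 3 h. The value for spermine at 0 h was 0.37 ± 0.14 (limma adjusted p = 0.0822). It was called with voom on the rebuilt reads, and was 0.52 without spermine 0 h replicate 2.

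The remaining V1 subunits had smaller values. Atp6v1e1, a peripheral stalk subunit, rose with IFN-β in PBS by 0.34 ± 0.06 (-0.12 in TPM and -0.06 after quantile normalization) and with spermine at 0 h by 0.36 ± 0.06 (0.03 and 0.14). Atp6v1b2, the macrophage form of the B subunit, gave 98.2 ± 1.37 FPKM in PBS 0 h, 115 ± 3.16 in PBS 3 h, 87.5 ± 2.16 in spermine 0 h and 102 ± 2.65 in spermine 3 h. Its change with spermine was -0.16 ± 0.06 at 0 h and -0.17 ± 0.06 at 3 h, neither called as deposited (limma adjusted p = 0.0625 and 0.0606) and both called in TPM (-0.51 and -0.37). Its rises with IFN-β, 0.23 ± 0.06 both in PBS and with spermine, turned in TPM (-0.24 and -0.11) and after quantile normalization (-0.42 and -0.24). Atp6v1f, a small stalk subunit, was called in 1 comparison, higher with spermine at 3 h by 0.40 ± 0.13 (adjusted p = 0.0432; 0.19 in TPM, not called), and did not hold without either PBS 0 h library, PBS 3 h replicate 1 or either spermine 3 h library (0.0635 to 0.186).

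**Figure D3:**
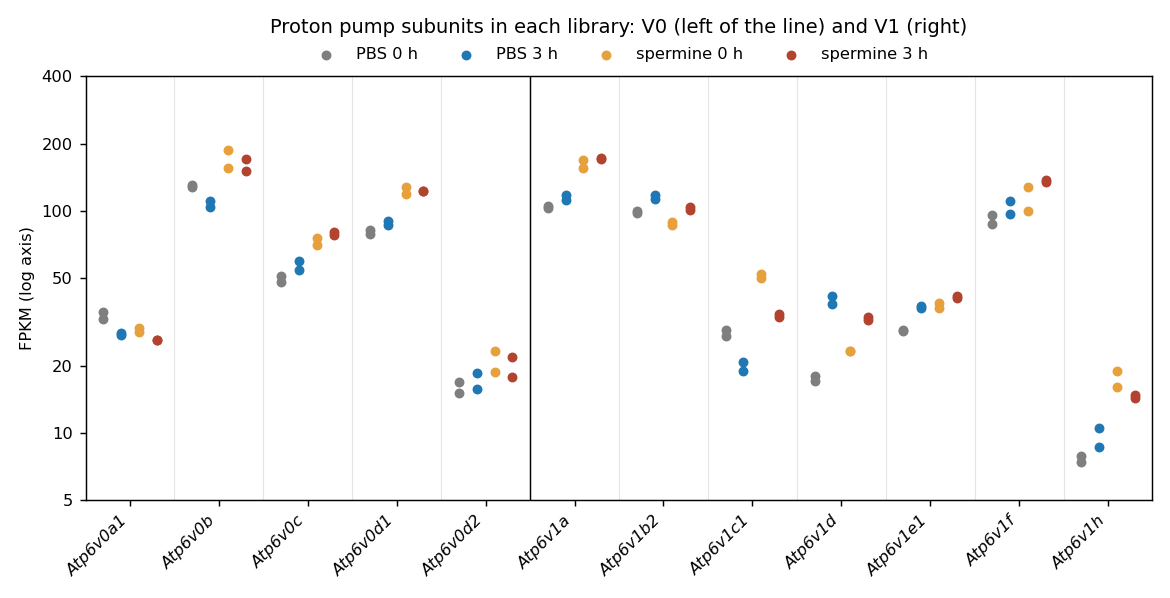
FPKM on a log axis (y) of the 12 proton pump subunits (x) in each library, coloured by group, with the 5 subunits of V0 left of the vertical line and the 7 of V1 right of it. Spermine libraries at 0 h lie above PBS libraries at 0 h for Atp6v0d1, Atp6v1a, Atp6v1c1 and Atp6v1h, and below them for Atp6v0a1 and Atp6v1b2.

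Among the 8 hydrolases that cut sugar chains, Gla had the largest changes. Gla (chrX:134588149-134601125, minus strand) encodes alpha-galactosidase A, which trims glycolipids and is missing in Fabry disease. It was at 59.5 and 59.3 FPKM in PBS 0 h and at 123 and 114 in PBS 3 h. With spermine it was at 97.4 and 91.8 FPKM at 0 h and at 173 and 175 at 3 h. Groups did not overlap, and spermine 3 h was highest in both libraries. Gla rose with IFN-β by 0.98 ± 0.06 in PBS and 0.87 ± 0.06 with spermine (limma adjusted p = 2.07e-05 and 6.11e-05). With spermine it rose by 0.66 ± 0.06 at 0 h and 0.55 ± 0.06 at 3 h (adjusted p = 0.00036 and 0.000791). It was the 1 gene of the 35 that rose in these 4 comparisons in all 3 scalings, with TPM changes of 0.52, 0.54, 0.32 and 0.35. The difference of its IFN-β responses was -0.11 ± 0.09 (adjusted p = 0.458).

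The other sugar hydrolases had smaller values. Hexa, the subunit of hexosaminidase that is missing in Tay-Sachs disease, had deposited changes of 0.21 to 0.25 in the 4 comparisons, each called with an adjusted p from limma between 0.0285 and 0.0483. In TPM these were -0.27, -0.12, -0.10 and 0.05, and after quantile normalization -0.50, -0.24, -0.28 and -0.02. No Hexa call held without either library of spermine 3 h, among others. Glb1, the beta-galactosidase used as a mark of senescent cells, had 0.25 ± 0.06 with IFN-β in PBS and 0.23 ± 0.06 with spermine, and Man2b1, an alpha-mannosidase, had 0.27 ± 0.08 with IFN-β and spermine. These 3 were also called as deposited, and in TPM they were -0.22, -0.10 and -0.06. The first Glb1 call did not hold without either PBS 0 h library (adjusted p 0.0577 to 0.0611), the second without spermine 0 h replicate 2 or either spermine 3 h library (0.0759 to 0.108). The Man2b1 call did not hold without either PBS 0 h library, spermine 0 h replicate 1 or either spermine 3 h library (0.0571 to 0.156). Gaa, the glycogen-degrading alpha-glucosidase, Gusb, Naglu and the sialidase Neu1 passed the test in no comparison as deposited. Their group means lay between 25.5 FPKM (Neu1 in PBS 3 h) and 115 FPKM (Gusb in PBS 0 h). In TPM and after quantile normalization Gusb was called lower with IFN-β in PBS (-0.56 and -0.73). The same held for Gusb with IFN-β and spermine (-0.29 and -0.44) and with spermine at 0 h (-0.39 in both). Both rescalings also called Naglu lower with spermine at 0 h (-0.51 and -0.49) and Neu1 lower with IFN-β in PBS (-0.49 and -0.38). Gaa was called lower with IFN-β in PBS in TPM only (-0.29).

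Of the 4 lipid-acting genes, Lipa had the largest change. Lipa (chr19:34492318-34527474, minus strand) encodes lysosomal acid lipase, which frees cholesterol and fatty acids from the lipoproteins a macrophage takes up. It was at 374 and 352 FPKM in PBS 0 h and at 421 and 377 in PBS 3 h. With spermine it was at 797 and 713 FPKM at 0 h and at 696 and 741 at 3 h. Every spermine library was above every PBS library by a wide gap. It rose with spermine by 1.05 ± 0.09 at 0 h and 0.85 ± 0.09 at 3 h (limma adjusted p = 0.000193 and 0.000495), which were 0.71 and 0.64 in TPM and 0.52 and 0.60 after quantile normalization. With IFN-β the values were 0.13 ± 0.09 in PBS and -0.07 ± 0.09 with spermine, not called as deposited and called lower in TPM (-0.34 and -0.41).

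Psap went from 4356 ± 190 FPKM in PBS 0 h to 5143 ± 203 in PBS 3 h, 5200 ± 205 in spermine 0 h and 5987 ± 80.3 in spermine 3 h. Its deposited changes of 0.24 ± 0.07 with IFN-β in PBS, 0.26 ± 0.07 with spermine at 0 h and 0.22 ± 0.07 at 3 h were called (limma adjusted p = 0.0273, 0.0263 and 0.0449). They were -0.24, -0.09 and 0.01 in TPM and -0.15, -0.24 and -0.09 after quantile normalization. None held without either PBS 0 h library or either spermine 3 h library. Asah1, an acid ceramidase, passed in no comparison as deposited. With IFN-β in PBS it was called lower in TPM (-0.29) and after quantile normalization (-0.48). With IFN-β and spermine it was also called lower in both (-0.30 and -0.40). Ppt1, which strips palmitate from proteins, passed in no comparison. Ppt1 shares 129 exon bases with Cap1 on the opposite strand, which was at 157 to 212 FPKM, so its values of 25.0 to 36.1 FPKM may hold reads of Cap1.

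Grn, the precursor of the granulins, was at 849 and 908 FPKM in PBS 0 h and at 1180 and 1233 in PBS 3 h. It rose by 0.46 ± 0.06 with IFN-β in PBS and 0.40 ± 0.06 with spermine (limma adjusted p = 0.00101 and 0.00295), values of -0.02 and 0.06 in TPM and -0.33 and -0.08 after quantile normalization. Tpp1, a peptidase that removes tripeptides, stayed between 71.1 and 86.0 FPKM in all libraries and was called in no comparison as deposited. In TPM and after quantile normalization Tpp1 was called lower with IFN-β, both in PBS (-0.39 and -0.59) and with spermine (-0.34 and -0.43).

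The promoters with and without TCACGTG were set side by side for these changes. Of the 9 genes with the motif, 3 rose and 1 fell with IFN-β in PBS, and 5 rose and 0 fell with spermine at 0 h. Of the 20 matched genes without it, 8 rose and 4 fell with IFN-β in PBS, and 9 rose and 2 fell with spermine at 0 h. Of all tested genes, 24.6% rose and 25.0% fell with IFN-β in PBS, and 22.0% and 19.2% with spermine at 0 h. In all 3 scalings, Gla rose and Mcoln1 fell with IFN-β in PBS among genes with the motif. Among those without it, Lamp2 and Atp6v1d rose and Tfeb, Tfe3, Mitf and Atp6v0a1 fell. With spermine at 0 h, Atp6v0d1, Atp6v1a and Gla with the motif and Lipa without it rose in all 3. Scarb2 and Atp6v0a1, without it, fell. The deposited medians for spermine at 0 h were 0.27 with the motif and 0.18 without. The order was the other way for IFN-β in PBS (0.13 with and 0.18 without), for IFN-β with spermine (0.12 and 0.17) and for spermine at 3 h (0.13 and 0.20). Of the promoters with TCACGTG, those of Lamp1, Gla, Mcoln1 and Atp6v0b hold more than 1 separate copy. Their changes with spermine at 0 h were 0.27, 0.66, -0.17 and 0.41.

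**Figure D4:**
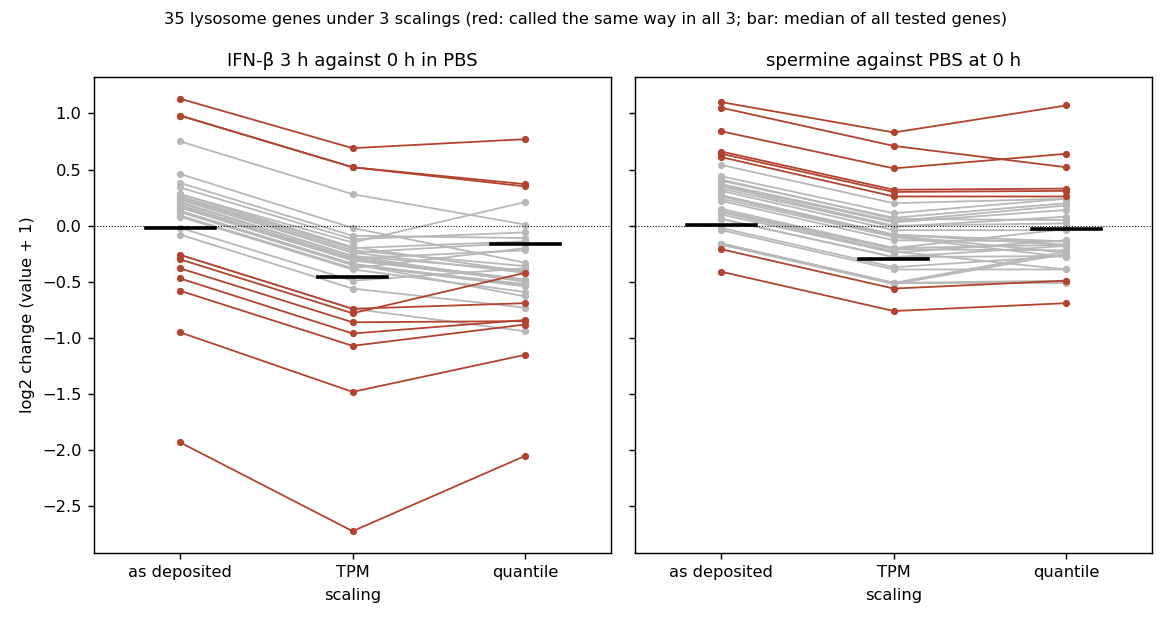
Log2 change (y axis) of the 35 lysosome genes under the deposited scaling, TPM and quantile normalization (x axis), for IFN-β in PBS and for spermine at 0 h. Each line is 1 gene, red where it was called the same way in all 3, and black bars are medians of all 11421 tested genes. In both panels every grey line goes down from the deposited values to TPM, and the bar goes from -0.02 to -0.46 for IFN-β in PBS and from 0.01 to -0.30 for spermine.

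A further 69 lysosome genes outside the list, in 5 groups, were counted in the same way, and 64 of them were tested. With spermine at 0 h, 16 rose and 15 fell (25% and 23.4%, against 22.0% and 19.2% of all tested genes). Of these, 2 and 14 did so in all 3 scalings, where all tested genes gave 10.3% and 16.3%. With IFN-β in PBS, 24 rose and 16 fell (37.5% and 25%, against 24.6% and 25.0%). Of these, 4 and 16 did so in all 3, where all tested genes gave 14.5% and 24.7%. The median change of the 64 genes was 0.10 with IFN-β in PBS and -0.03 with spermine at 0 h, where that of the 35 genes was 0.17 and 0.26.

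Of 19 other lysosomal hydrolases and activators counted here, 8 fell with spermine at 0 h (42.1%, against 19.2% of all tested genes). All 8 fell in the 3 scalings, where all genes gave 16.3%. With IFN-β in PBS 5 rose and 4 fell (26.3% and 21.1%, against 24.6% and 25.0%). Of these, 0 and 4 held in all 3 scalings, where all genes gave 14.5% and 24.7%. With spermine at 0 h Pla2g15, a lysosomal phospholipase, went from 36.3 and 41.8 to 12.4 and 13.1 FPKM (-1.54 ± 0.09, limma adjusted p = 5.01e-05). Sgsh, a heparan sulfatase, went from 16.2 and 17.7 to 7.22 and 7.51 FPKM (-1.10 ± 0.10), and the acid phosphatase Acp2 had -0.53 ± 0.08.

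Pla2g15 and Sgsh responded to IFN-β differently with spermine. Pla2g15 was at 34.9 and 39.2 FPKM in PBS 3 h, close to PBS 0 h, and rose with spermine from the low values above to 31.9 and 30.4 FPKM. The difference of its responses was 1.30 ± 0.13 (limma adjusted p = 0.00285). Sgsh fell in PBS to 6.30 and 7.71 FPKM and was at 6.52 and 7.06 in spermine 3 h, close to its level in spermine 0 h. Its difference was 1.07 ± 0.15 (adjusted p = 0.00676). Both differences were called in all 3 scalings.

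Among 14 other membrane proteins, 9 rose and 2 fell with IFN-β in PBS (64.3% and 14.3%, against 24.6% and 25.0% of all genes). Only 3 of the rises and both falls held in all 3 scalings, where all genes gave 14.5% and 24.7%. With spermine at 0 h 6 rose and 2 fell (42.9% and 14.3%, against 22.0% and 19.2%). Of these, 0 and 1 held in all 3, where all genes gave 10.3% and 16.3%. The sialomucin Cd164 was at 17.3 and 16.5 FPKM in PBS 0 h and at 102 and 82.3 in PBS 3 h. With spermine it went from 28.9 and 23.5 FPKM to 61.2 and 66.6. It rose by 2.37 ± 0.13 in PBS and 1.26 ± 0.13 with spermine (limma adjusted p = 8.98e-06 and 0.000345), a difference of -1.11 ± 0.19 (adjusted p = 0.0128), a call that ended on leaving out spermine 3 h replicate 1 or PBS 0 h replicate 2 (0.0591 to 0.0623). Tmem192 rose by 1.01 ± 0.07 in PBS and by 0.65 ± 0.07 with spermine, in all 3 scalings. With spermine at 0 h the tetraspanin Cd63 had 0.43 ± 0.07, Cd164 0.60 ± 0.13 and Tmem192 0.35 ± 0.07, none called in all 3 scalings. The sialic acid exporter Slc17a5 fell by 0.47 ± 0.08 in all 3, and the amino acid sensor Slc38a9 fell by 0.36 ± 0.09 as deposited. The Cd164 call at 0 h did not hold without spermine 0 h replicate 1 or PBS 0 h replicate 2, that of Tmem192 without PBS 0 h replicate 1, and that of Slc38a9 without either PBS 0 h library or spermine 0 h replicate 2.

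Of 11 other pump subunits and accessories, 7 were tested. With spermine at 0 h 5 rose and 1 fell (71.4% and 14.3%, against 22.0% and 19.2% of all genes), and the fall, that of Atp6v1g2, was the only call in all 3 scalings. Atp6ap2, Atp6v0e and Tcirg1, which encodes the a3 form of the subunit that Atp6v0a1 encodes, had 0.41 ± 0.12, 0.36 ± 0.06 and 0.36 ± 0.10 as deposited, and 0.07, 0.02 and 0.02 in TPM. The calls of Atp6ap2 and Tcirg1 were lost without either PBS 0 h library, among others. Atp6v1g2 was low, at 2.78 and 2.13 FPKM in PBS 0 h against 1.08 and 0.569 in spermine 0 h (-0.93 ± 0.19, limma adjusted p = 0.0079), which did not hold without PBS 0 h replicate 1 (-0.79, adjusted p = 0.0546).

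In the mTORC1 machinery of the lysosome, 14 of 15 genes were tested. With IFN-β in PBS 4 rose and 5 fell (28.6% and 35.7%, against 24.6% and 25.0% of all genes). Of these, 0 and 5 held in all 3 scalings, where all genes gave 14.5% and 24.7%. With spermine at 0 h 5 rose and 2 fell (35.7% and 14.3%, against 22.0% and 19.2%). Of these, 2 and 2 held in all 3, where all genes gave 10.3% and 16.3%. Flcn, folliculin, which lets mTORC1 reach TFEB and TFE3, was at 22 and 22.3 FPKM in PBS 0 h and at 7.44 and 9.40 in PBS 3 h. Spermine gave 30.3 and 34.9 FPKM at 0 h and 19.4 and 20.0 at 3 h. As for Tfe3 and Mitf, PBS 3 h was the lowest group and spermine 0 h had the highest mean. Flcn fell by 1.31 ± 0.11 with IFN-β in PBS (limma adjusted p = 8.84e-05), and at 3 h it was higher with spermine by 1.14 ± 0.11 (adjusted p = 0.000407), both in all 3 scalings. The difference of its responses was 0.61 ± 0.16 (adjusted p = 0.0502), called in TPM and after quantile normalization. Its partner Fnip2 rose with spermine at 0 h by 0.77 ± 0.09, and the Rag GTPase Rragc by 0.60 ± 0.08, both in all 3 scalings. Lamtor4 fell by 0.36 ± 0.07, which did not hold without PBS 0 h replicate 1, and Rptor by 0.39 ± 0.08, and did not hold without spermine 0 h replicate 1 or PBS 0 h replicate 2. Rragd, a known target of TFEB that was picked after its values were seen, was at 5.23 and 4.70 FPKM in PBS 0 h, 1.25 and 1.59 in PBS 3 h, 5.36 and 4.98 in spermine 0 h, and 2.40 and 2.52 in spermine 3 h.

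Of 10 sorting genes, 3 rose and 4 fell with IFN-β in PBS (30% and 40%, against 24.6% and 25.0% of all genes). Of these, 0 and 4 held in all 3 scalings, where all genes gave 14.5% and 24.7%. With spermine at 0 h 0 rose and 2 fell (0% and 20%, against 22.0% and 19.2%). Both falls held in all 3, where all genes gave 16.3%. Igf2r, the large mannose 6-phosphate receptor that brings hydrolases to the lysosome, was at 38.4 and 38.6 FPKM in PBS 0 h, 28.8 and 29.7 in PBS 3 h, 26.3 and 25.3 in spermine 0 h, and 18.2 and 19.8 in spermine 3 h. It was lower in each of the 4 comparisons in all 3 scalings, with -0.56 ± 0.07 for spermine at 0 h (limma adjusted p = 0.00083). Nagpa, which uncovers the mannose 6-phosphate tag, had -0.54 ± 0.17 for spermine at 0 h (adjusted p = 0.0379), and did not hold without either PBS 0 h library or spermine 0 h replicate 1 (0.0608 to 0.184).

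**Figure D5:**
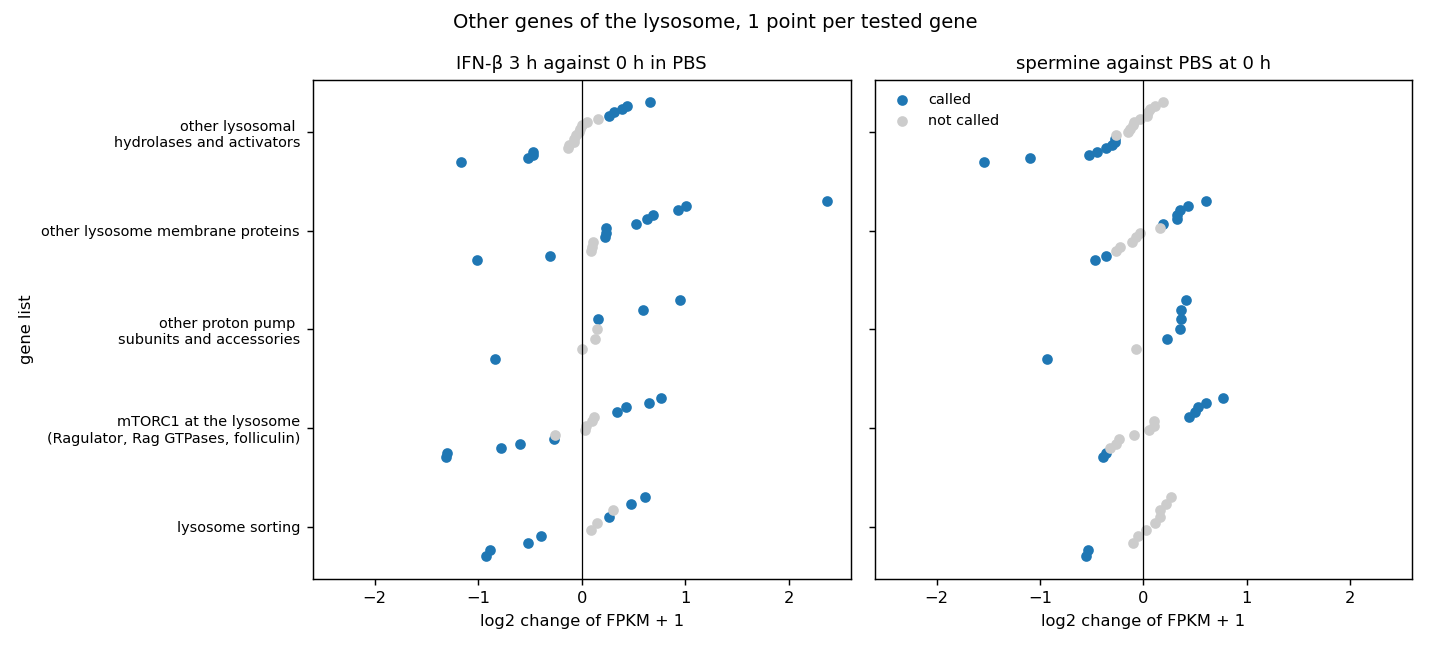
Log2 change of FPKM + 1 (x axis) of the 64 tested lysosome genes outside the list of 35, in 5 groups (y axis), for IFN-β in PBS and spermine at 0 h. Each point is 1 gene, blue where called and grey where not. In the right panel the hydrolase Pla2g15 is the farthest point to the left, at -1.54, and Fnip2 of the mTORC1 group the farthest to the right, at 0.77.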

How the data were processed

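Poly(A)-selected RNA of 8 libraries was sequenced. The authors deposited 1 table of FPKM per gene, with gene lengths. Per the submitters' processing notes, the builds were GRCm38 and mm10 and the tools HISAT2 2.0.5, featureCounts 1.5.0-p3, fastp, CASAVA 1.8 and DESeq2 1.20.0, listed without their roles, with no strand setting or rule for shared reads. FPKM times gene length gave whole reads for 100% of values within 0.01 read, which supplied the depths. In PBS 0 h replicate 1 the 35 genes took 3.49% of these reads and Psap 42.9% of that, at 4222 FPKM. In PBS 3 h replicate 1 the values were 2.91%, 41.5% and 5000 FPKM. Psap thus took a smaller share of reads at a higher FPKM, so the deposited values were not scaled by total reads alone. Libraries of a group differed by more than counting error (chi-square per degree of freedom 4.03 to 14.6), so the spread between them, more than the depth, sets the precision.

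With limma 3.58.1 in R 4.3.3, 4 group means and an intensity trend were fitted to log2(FPKM + 1) of genes that reached 1 FPKM in 2 or more of 8 libraries (4 residual and 2.83 prior degrees of freedom, two-sided, Benjamini-Hochberg over 11421 genes per comparison, checked on simulated data). An adjusted p does not correct for the 5 comparisons. Titles gave the groups, with PBS as control, which the series text calls DMSO. Alternatives were an offset of 0.1, no filter, TPM, quantile normalization, no trend, only the 2 groups compared, a replicate block, voom on rebuilt reads, and leaving out each library. Library sizes for voom were those implied by the deposited FPKM, so it shares their scaling. Tables used Python 3.11.15, pandas 2.3.3 and numpy 2.4.6, and figures matplotlib 3.10.9.

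The members and lists were chosen with earlier results of these data known. Per-library values are given for Tfeb, Tfe3, Mitf, Lamp1, Mcoln1 and Atp6v0d2, and for up to 3 called members with the largest rise and 3 with the largest fall in each comparison. From other lists, up to 3 in each direction among those called with spermine at 0 h are named. From the list of other hydrolases, 2 genes are not reported here and are left out of its counts. Motifs were searched on both strands of RefSeq windows. Of the 37 windows of the 29 matched members, 35 hold a GENCODE M21 transcript start on the printed strand.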

Additional observations from a re-analysis of the deposited data

Results flagged for a closer look

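The response to 3 h of IFN-β differed with spermine, by limma's test of the difference of the 2 responses (spermine minus PBS, log2 scale), for 1 of the 35 genes and for 7 of the 64 other lysosome genes tested. Of these 7, 3 were higher and 4 lower (4.69% and 6.25%, against 5.82% and 7.75% of all tested genes). Atp6v1d had -0.67 (adjusted p = 0.00777), having risen in both groups. Cd164 had -1.11 and Atp6v0a2 -0.63, and both also rose less with spermine than in PBS. Fnip1 had -0.73 and Gnptab -0.58, where IFN-β raised the gene in PBS and the change with spermine was not called. Sgsh had 1.07 and Lamtor4 0.51, where the gene fell in PBS and the change with spermine was not called. Pla2g15 had 1.30, where the change in PBS was not called and the gene rose with spermine. Atp6v0a2, Fnip1 and Gnptab stand here for this difference and were chosen after their values were seen. Fnip1 and Gnptab were not called in all 3 scalings, and the other 6 were. Leaving out 1 library ended the calls of Cd164 (2 libraries, adjusted p 0.0591 to 0.0623), Atp6v0a2 (5 libraries, 0.0501 to 0.072), Lamtor4 (6, 0.0535 to 0.0934), Gnptab (6, 0.0579 to 0.106) and Fnip1 (7, 0.0543 to 0.144), and of no other of these 8.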

How the results depend on the processing

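The 35 genes gave 71 calls over the 5 comparisons, counting each direction. Of these, 70 were the same with an offset of 0.1, 63 without the trend, 56 without the filter, 51 of 70 with only the 2 groups compared, 71 with voom, and between 52 and 68 when a library was left out. The voom fit kept the library sizes of the deposited values, so its 71 could not test the scaling. Only 39 of the 71 calls were the same in TPM, where 5 were called in the opposite direction. After quantile normalization 39 were the same and 9 were opposite. TPM divides each library by its summed FPKM. That sum was 248254 and 253576 in PBS 0 h, and 351671 and 345825 in PBS 3 h. With spermine it was 316283 and 321894 at 0 h, and 404833 and 400534 at 3 h. What made these sums differ, or the quantile calls change, was not tested.

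Counts that moved by over 1.5 times are given as genes higher and lower. With IFN-β in PBS they were 4 and 23 in TPM and 3 and 24 after quantile normalization, and with IFN-β and spermine 2 and 17, and 2 and 20. For spermine at 0 h they were 6 and 9 in TPM and 7 and 8 after quantile normalization, with 1 lower without the trend and 1 lower with only the 2 groups. For spermine at 3 h, 4 were lower in TPM, 4 after quantile normalization and 0 with only the 2 groups compared. For the difference of the responses, 2 were higher in TPM, 1 after quantile normalization, and 1 higher and 2 lower with voom. Leaving out single libraries gave 7 to 12 higher and 5 to 8 lower with IFN-β in PBS, 6 to 10 and 4 to 5 with spermine, 11 to 17 and 1 to 2 for spermine at 0 h, 10 to 16 and 0 to 2 for spermine at 3 h, and 0 to 1 and 1 to 2 for the difference.

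With the replicate number as a block, all 71 calls were kept and 8 were gained. The difference of the responses then had 1 higher (Mitf, adjusted p = 0.0436) and 2 lower, Atp6v1h (0.0454) joining Atp6v1d, and Tfeb was higher with spermine at 3 h (0.0346). The numbers were not treated as pairing the samples. Differences between replicates 1 and 2 correlated across genes by 0.23, 0.25 and 0.37 among PBS 0 h, PBS 3 h and spermine 0 h, and by -0.06, -0.09 and -0.13 between these and spermine 3 h.

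The following values turned in sign. Single genes are listed only where the change was called as deposited or after the rescaling. In TPM the median of the 35 genes was -0.30 with IFN-β in PBS, -0.21 with IFN-β and spermine, -0.09 with spermine at 0 h and 0.10 for the difference, and after quantile normalization -0.42, -0.24, -0.14 and 0.15. With IFN-β in PBS the TPM change was -0.19 for Lamp1, -0.09 Scarb2, -0.27 Atp6v0c, -0.35 Atp6v0d1, -0.34 Atp6v1a, -0.24 Atp6v1b2, -0.12 Atp6v1e1, -0.29 Gaa, -0.22 Glb1, -0.27 Hexa, -0.31 Man2b1, -0.24 Psap, -0.34 Lipa, -0.29 Asah1, -0.39 Tpp1 and -0.02 Grn. With IFN-β and spermine it was -0.22 for Lamp1, -0.26 Atp6v1a, -0.11 Atp6v1b2, -0.21 Atp6v1e1, -0.10 Glb1, -0.29 Gusb, -0.12 Hexa, -0.06 Man2b1 and -0.30 Asah1. With spermine at 0 h it was -0.08 for Lamp1, -0.01 Npc1, -0.08 Npc2, -0.20 Glb1, -0.10 Hexa, -0.28 Man2b1, -0.09 Psap and -0.23 Grn. After quantile normalization the change with IFN-β in PBS was -0.41 for Lamp1, -0.11 Scarb2, -0.40 Atp6v0c, -0.54 Atp6v0d1, -0.53 Atp6v1a, -0.42 Atp6v1b2, -0.06 Atp6v1e1, -0.48 Atp6v1f, -0.36 Glb1, -0.50 Hexa, -0.52 Naglu, -0.49 Man2b1, -0.15 Psap, -0.63 Lipa, -0.48 Asah1, -0.59 Tpp1 and -0.33 Grn. With IFN-β and spermine it was -0.33 for Lamp1, -0.31 Atp6v0c, -0.43 Atp6v1a, -0.24 Atp6v1b2, -0.20 Atp6v1e1, -0.17 Glb1, -0.44 Gusb, -0.24 Hexa, -0.24 Man2b1, -0.40 Asah1 and -0.08 Grn. With spermine at 0 h it was -0.17 for Lamp1, -0.14 Npc2, -0.28 Hexa, -0.27 Man2b1, -0.24 Psap, -0.39 Grn and -0.05 Tcirg1, and at 3 h -0.02 for Npc2, -0.02 Hexa and -0.09 Psap.

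The reads of the 35 genes were also divided by all reads but those of the 200 most read genes. All 35 genes stayed in the numerator, so this is a ratio and not a share of reads. It was 5.22% in PBS 0 h, 4.85% in PBS 3 h, 5.52% in spermine 0 h and 5.5% in spermine 3 h. In promoters cut to 150 bases before the start, TCACGTG was in 8 of 29 (27.6%, against 6.5% of tested genes).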
